A study of Homo sapiens with 18 samples.

Results

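The 10 genes described here cover purine salvage and nucleoside transport: HPRT1, APRT, PNP, ADK, ADA, NT5C2, NT5E, SLC29A1, SLC29A2 and DGUOK. They were picked by gene symbol from a table of 62749 genes, and the 171 transcripts that carry these symbols were summed to genes. Each symbol matched a single gene identifier, and all 10 genes passed the filter on low counts that 19252 genes passed. The samples were 18 RNA-seq libraries of MDA-MB-231, an established line of triple-negative breast cancer cells, in 6 groups of 3 libraries. Library totals ran from 45865079 to 63276484 estimated reads, and the count behind a salvage gene in 1 library ran from 90 (ADA) to 59402 (NT5E).

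One group held unedited cells (WT) and a second the IMPDH2 knockout (KO). The other 4 were the knockout grown with 400 µM guanosine, and the knockout given back IMPDH2 without a stated location, in a nuclear form or in a cytosolic form. All groups but the unedited one carry the knockout. No group is labelled as a knockout given a control construct, so the returned IMPDH2 and the making of its line cannot be told apart. The sources used here do not give whether the knockout is 1 clone, nor whether replicate libraries stem from different cultures. The p-values therefore measure the spread between these libraries, which may be technical, and the deletion and the line that carries it cannot be told apart in the comparison with unedited cells. In RNA from bulk cultures, fewer cells that express a gene and less RNA of it per cell cannot be told apart either. The study's question was what IMPDH2 does in this line when removed and returned in different forms.

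IMPDH enzymes make the first committed step from IMP toward guanine nucleotides in de novo synthesis. Salvage is the other route: nucleosides enter the cell through transporters, are cleaved to bases or phosphorylated directly, and bases are joined to ribose phosphate by phosphoribosyltransferases. Guanosine added to the medium reaches the guanine nucleotide pool through transport, cleavage by purine nucleoside phosphorylase (PNP) and conversion of guanine to GMP by HPRT1.

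IMPDH2 itself averaged 319 CPM (counts scaled to library size by the trimmed mean of M-values, TMM) in unedited cells, 41.6 in the knockout and 22.1 in the guanosine-fed knockout. It averaged 532 CPM with unlocalised IMPDH2, 297 with the nuclear form and 379 with the cytosolic form. The groups labelled with IMPDH2 thus lay above those labelled as knockout without it. These levels do not check where the enzyme was located or which knockout libraries had guanosine. Its paralog IMPDH1 averaged between 43.7 and 53.9 CPM in the 6 groups. Markers of basal-type breast cancer cells (VIM, CD44, CAV1, AXL and SPARC) summed to 4456 to 6949 CPM, highest in unedited cells and lowest in the knockout. In unedited cells VIM averaged 4765 CPM and SPARC only 1.23 CPM, and SPARC was near 0 in the other groups. Of the receptor genes, ESR1 and PGR were near 0, while ERBB2 averaged 69.4 CPM in unedited cells, 74.6 in the knockout and 83.3 with guanosine. Luminal markers, mostly KRT19, summed to 243.8 to 258 CPM in unedited cells and 144 to 160.5 CPM in the knockout. Blood and endothelial markers summed to 3.11 to 12.6 CPM, most of it PECAM1 and highest in unedited cells, and fibroblast markers to at most 0.55 CPM. The share of counts from mitochondrially encoded transcripts was 5.15% to 5.21% in unedited cells and 7.25% to 8.21% in the knockout-derived groups. What part this and the shifts in the basal and luminal markers have in the differences from unedited cells was not tested.

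The promoters of 9 of the 10 genes were found among the RefSeq promoters (GRCh38.p14), as the 250 bases before the annotated start. Where a gene had several, the first listed was used. The windows of PNP, ADA, NT5C2 and NT5E lie inside the gene bounds given below. That of NT5C2 (chr10:103153822-103154071) lies far inside its gene, and that of NT5E wholly within annotated exons. The sequences of HPRT1, APRT and ADA are shown because HPRT1 and APRT are the paired phosphoribosyltransferases, which moved in opposite directions in the knockout, and ADA had the largest rise. Each is printed 5′ to 3′ on the strand of its gene, restricted to the stretch outside annotated exons, with capitals marking the GC box GGGCGG on either strand (overlapping matches run together).
HPRT1: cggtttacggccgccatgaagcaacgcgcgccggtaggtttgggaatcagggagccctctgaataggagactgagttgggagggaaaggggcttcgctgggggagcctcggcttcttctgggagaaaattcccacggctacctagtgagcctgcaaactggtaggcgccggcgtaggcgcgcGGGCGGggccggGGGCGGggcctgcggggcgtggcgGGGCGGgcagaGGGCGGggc
APRT: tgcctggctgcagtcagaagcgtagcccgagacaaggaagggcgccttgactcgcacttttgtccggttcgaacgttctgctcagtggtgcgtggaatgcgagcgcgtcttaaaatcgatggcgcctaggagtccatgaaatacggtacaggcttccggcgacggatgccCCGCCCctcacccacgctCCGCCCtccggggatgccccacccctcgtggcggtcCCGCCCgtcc
ADA: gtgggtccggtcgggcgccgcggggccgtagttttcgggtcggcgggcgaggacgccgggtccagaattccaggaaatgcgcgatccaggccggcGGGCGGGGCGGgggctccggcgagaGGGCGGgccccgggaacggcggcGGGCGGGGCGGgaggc
They lie at chrX:134459915-134460152 on the plus strand, chr16:88811945-88812178 on the minus strand and chr20:44651743-44651901 on the minus strand. Within their 250 bases, HPRT1 held 4 GC boxes, APRT 3 and ADA 5. GGGCGG was found in 8 of the 9 salvage promoters, all but that of NT5C2, and in 42.3% of 27305 RefSeq promoters of this length. These are the first listed of each gene symbol and are called all promoters here. CCAAT, on either strand, was found in those of PNP, ADK and DGUOK and in 33.0% of all promoters, and CACGTG in that of SLC29A1 and in 6.5% of all. TATAAA (11.1% of all promoters), TGANTCA (6.6%) and GCGCATGCG (1.8%) were in none of the 9. The ADA promoter had a G and C content of 80.0%, against a median of 58% over all promoters. These matches describe letters only, and genes that rose and genes that fell both carry the GC box.

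Measured per transcript length (TPM, length-scaled abundance), NT5E was the most abundant of the 10 genes in unedited cells at 483 TPM. SLC29A1 followed at 163 TPM, ADK at 161, HPRT1 at 136, PNP at 123 and APRT at 121. DGUOK stood at 81.3 TPM, NT5C2 at 45.5, SLC29A2 at 12.2 and ADA, at 1.34 TPM, far below the others. In the knockout the order changed, with APRT at 196 TPM and PNP at 169 above NT5E at 136 and HPRT1 at 62.7.

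**Figure D1:**
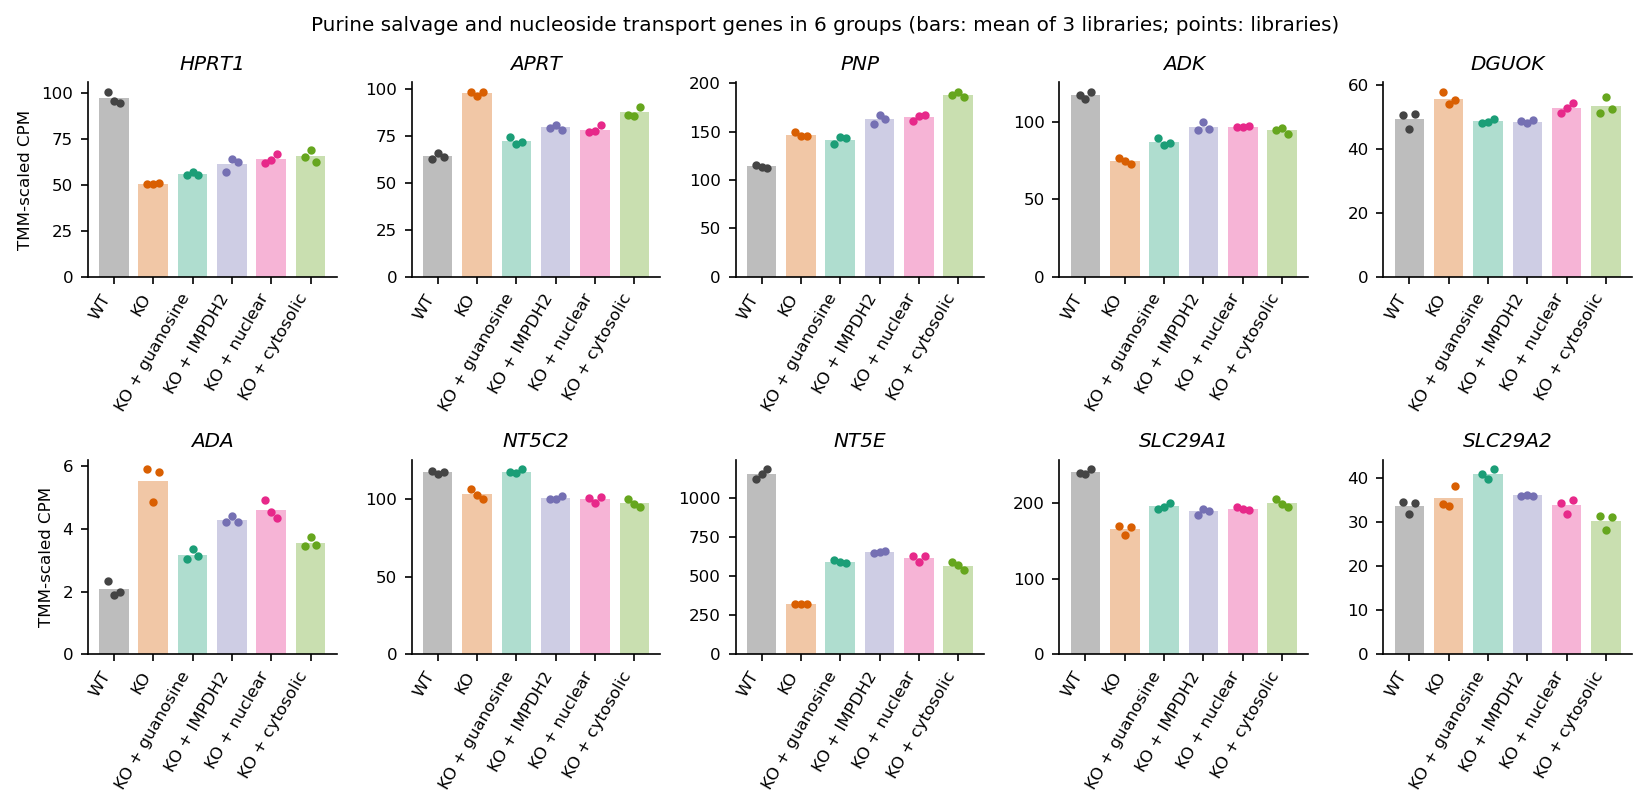
TMM-scaled CPM of each gene in the 6 groups, 1 panel per gene with its own axis from 0; bars are means and points the 3 libraries. NT5E fell from a mean of 1149 CPM in unedited cells to 320.3 in the knockout and stood between 566 and 653 in the 4 groups with guanosine or IMPDH2, whereas ADA ran the other way.

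In the IMPDH2 knockout the ecto-enzyme NT5E, the purine phosphoribosyltransferase HPRT1, adenosine kinase (ADK) and the nucleoside transporter SLC29A1 fell, and adenosine deaminase (ADA), APRT and PNP rose. With edgeR's quasi-likelihood test and Benjamini-Hochberg adjustment over all tested genes, 9 of the 10 passed an adjusted p of 0.05, 4 higher and 5 lower. In this comparison 72.7% of all tested genes passed (35.9% higher, 36.8% lower), so most genes of any kind did. Of the 10 genes, 5 also differed by at least 1.5-fold, against 38.5% of all genes. Their median absolute log2 difference was 0.58 and that of all genes 0.49.

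NT5E encodes CD73, the surface enzyme that turns extracellular AMP into adenosine (chr6:85449584-85495791, plus strand, GENCODE 29, GRCh38). The unedited libraries measured 1116, 1149 and 1181 CPM and the knockout libraries 324, 319 and 318 CPM. The groups did not overlap, as for 9 of the 10 genes and 74.7% of all genes. NT5E fell by 1.84 on the log2 scale (SE 0.0321, adjusted p = 2.04e-18), a 3.59-fold difference and the largest among the 10. Its counts came from coding transcripts in every library, with 84.9% of all NT5E counts on NT5E-201.

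HPRT1 salvages hypoxanthine and guanine (chrX:134460153-134520513, plus strand). It measured 100.5, 95.6 and 94.4 CPM in unedited cells and 50.4, 50.4 and 50.9 CPM in the knockout. All knockout libraries lay well under every unedited library, and HPRT1 fell by 0.94 (SE 0.0426, adjusted p = 6.22e-13, log2). APRT, which salvages adenine (chr16:88809339-88811944, minus strand), measured 62.5, 66 and 63.9 CPM in unedited cells and 98.5, 96.2 and 98.4 CPM in the knockout. It rose by 0.61 on the log2 scale (SE 0.0291, adjusted p = 1.31e-12), so the phosphoribosyltransferases for the different bases moved in opposite directions.

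PNP cleaves guanosine and inosine to the free base (chr14:20468954-20477094, plus strand). Its unedited libraries were at 116, 114 and 113 CPM and its knockout libraries at 149, 146 and 145 CPM, a rise of 0.36 (SE 0.0261, adjusted p = 4.6e-10, log2) without overlap. ADK phosphorylates adenosine to AMP (chr10:74151185-74709303, plus strand). It measured 118, 115 and 119.6 CPM in unedited cells and 76.5, 75 and 72.8 CPM in the knockout, and fell by 0.65 (SE 0.0282, adjusted p = 3.04e-13, log2). ADA deaminates adenosine to inosine (chr20:44619522-44652233, minus strand). It rose from 2.33, 1.91 and 2 CPM to 5.91, 4.86 and 5.81 CPM, a log2 difference of 1.41 (SE 0.097, adjusted p = 2.52e-10). The enzymes that compete for intracellular adenosine thus moved in opposite directions, ADK down and ADA up, with ADA at a low level throughout. Coding transcripts held between 37.4% and 81.9% of the ADA counts of a library, and the gene overlaps PKIG on the other strand.

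The other 4 genes spanned both transporters, a cytosolic nucleotidase and a mitochondrial kinase. SLC29A1 (ENT1, an equilibrative nucleoside transporter, chr6:44219505-44234151, plus strand) fell from 241, 239 and 245 CPM to 170.2, 159 and 169 CPM, by 0.54 on the log2 scale (SE 0.0279, adjusted p = 3.66e-12). Its relative SLC29A2 (ENT2, chr11:66362521-66372214, minus strand) ranged from 31.8 to 34.5 CPM in unedited cells and from 33.8 to 38.3 CPM in the knockout. The ranges of SLC29A2 overlapped, and its log2 difference of 0.08 did not pass (95% interval -0.04 to 0.19, adjusted p = 0.205). With libraries scaled by their totals it passed, at 0.24. NT5C2, which dephosphorylates IMP and GMP in the cytosol (chr10:103088017-103193306, minus strand), fell by 0.19 (adjusted p = 4.47e-06), a call lost with library totals (-0.03, adjusted p = 0.342). DGUOK, the mitochondrial kinase of deoxyguanosine (chr2:73926826-73958961, plus strand), rose by 0.17 (adjusted p = 0.000881), a call lost with an offset for transcript length (0.07, adjusted p = 0.258).

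Genes around HPRT1 and NT5E were low in the knockout as well. Among the 25 tested coding genes on each side of HPRT1, the median log2 difference was -0.79, close to HPRT1's own -0.94, and 31 of the 50 lay above HPRT1. Around NT5E the median was -0.68, and 46 of the 50 neighbours lay above NT5E. PNP (0.36), DGUOK (0.17) and SLC29A2 (0.08) also lay near their neighbours, whose medians were 0.27, 0.13 and 0.08. For PNP only 33 such neighbours were available. The medians were -0.22 around SLC29A1, -0.16 around ADK, -0.01 around NT5C2, 0.22 around APRT and 0.28 around ADA. The part that these stretches of chromosome have in the differences of the 10 genes was not tested.

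**Figure D2:**
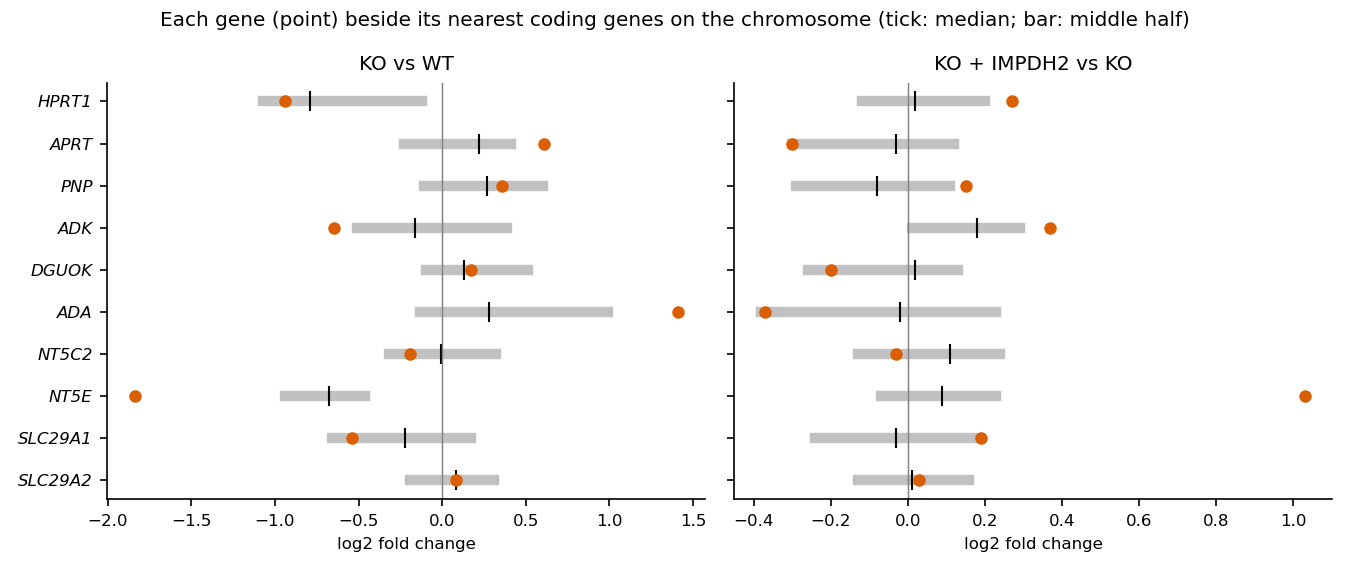
Log2 fold change of each gene (orange point) beside its nearest tested coding genes on the same chromosome (black tick, median; grey bar, interquartile range) in knockout against unedited cells and in knockout with unlocalised IMPDH2 against knockout. The neighbours of HPRT1 and NT5E had medians of -0.79 and -0.68 in the first comparison and 0.02 and 0.09 in the second, where NT5E stood at 1.03.

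With guanosine added to the knockout, NT5E, SLC29A1, ADK, SLC29A2, NT5C2 and HPRT1 rose and ADA, APRT and DGUOK fell. By the same test 9 of the 10 genes passed, 6 higher and 3 lower, where 56.5% of all genes passed (27.3% higher, 29.2% lower). PNP did not pass. The comparison shares its knockout libraries with the previous one and with those of the IMPDH2 forms, so the values are set side by side and no relation between them is drawn.

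NT5E measured 603, 589 and 579.8 CPM with guanosine, all above the 318 to 324 CPM of the knockout and all under the unedited 1116 CPM. It rose by 0.88 (SE 0.0315, adjusted p = 1.18e-13, log2) and reached 51.4% of the unedited mean, from 27.9%. ADA measured 3.06, 3.36 and 3.14 CPM and fell by 0.79 (SE 0.0937, adjusted p = 9.32e-07, log2). APRT measured 74.5, 70.8 and 71.9 CPM and fell by 0.43 (SE 0.0289, adjusted p = 5.22e-10, log2). For both, the guanosine-fed libraries lay between those of the knockout and the unedited cells, at 153% (ADA) and 113% (APRT) of the unedited mean.

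ADK measured 89.6, 85.0 and 86.7 CPM and rose by 0.22 (adjusted p = 2.9e-06, log2), and SLC29A1 measured 193, 196 and 200.4 CPM and rose by 0.24 (adjusted p = 7.31e-07). HPRT1, which completes guanosine salvage, measured 55.2, 57.0 and 55.2 CPM. Its rise of 0.14 (SE 0.0437, adjusted p = 0.0101) was the smallest that passed and was lost with the length offset (0.15, adjusted p = 0.0653), with coding transcripts alone (0.10, adjusted p = 0.164) and with library totals (0.08, adjusted p = 0.128). PNP, at 137, 144 and 144 CPM, had a log2 difference of -0.05 (95% interval -0.10 to 0.00, adjusted p = 0.11). The PNP difference passed with the length offset (-0.11) and with library totals (-0.12).

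NT5C2 with guanosine measured 118, 117 and 119 CPM, overlapping the 116 to 118 CPM of the unedited libraries, and differed from unedited cells by 0.01 on the log2 scale (95% interval -0.05 to 0.06, adjusted p = 0.869). With libraries scaled by their totals, NT5C2 passed as higher than in unedited cells, by 0.10 (adjusted p = 0.00163). Against the knockout it rose by 0.19 (adjusted p = 5.95e-06). SLC29A2 was highest of all groups with guanosine, at 41.0, 39.7 and 42.0 CPM, a rise of 0.21 over the knockout (adjusted p = 0.00256). That call was lost with coding transcripts alone (0.35, adjusted p = 0.574), which hold few of its counts. DGUOK fell by 0.20 (adjusted p = 0.000437), a call lost with the length offset (-0.07, adjusted p = 0.264).

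With IMPDH2 given back, NT5E, ADK, HPRT1, SLC29A1 and PNP rose and ADA and APRT fell in all 3 forms. By the same test 8 of the 10 genes passed with unlocalised IMPDH2, 5 higher and 3 lower, where 50.8% of all genes passed (25.7% higher, 25.1% lower). With the nuclear form 7 passed, 5 higher and 2 lower, against 53% of all genes (26.1% higher, 26.9% lower). With the cytosolic form 9 passed, 5 higher and 4 lower, against 50.6% of all genes (24.6% higher, 26% lower). No gene of the 10 was higher with 1 form and lower with another among those that passed. These comparisons share the knockout libraries.

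NT5E measured 645, 655 and 658 CPM with unlocalised IMPDH2, 629, 589.7 and 626 CPM with the nuclear form and 588, 570.3 and 539 CPM with the cytosolic form. Every one of these libraries lay above the knockout and below the unedited cells. The log2 rises of NT5E over the knockout were 1.03 (SE 0.0316, adjusted p = 8.48e-14), 0.94 (SE 0.0315, adjusted p = 1.39e-13) and 0.82 (SE 0.0315, adjusted p = 8.67e-13). Its neighbours on the chromosome had medians of 0.09, 0.10 and -0.04 in these comparisons, and with unlocalised IMPDH2 all 50 of them lay below NT5E. NT5E was at 56.8%, 53.5% and 49.3% of the unedited mean and stayed lower than in unedited cells (log2 -0.82, -0.90 and -1.02, with adjusted p of 1.04e-13, 2.7e-14 and 4.32e-15). Against unedited cells its neighbours had medians of -0.56, -0.55 and -0.64.

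HPRT1 measured 57.0, 64.0 and 62.2 CPM with unlocalised IMPDH2, 61.7, 63.5 and 66.7 CPM with the nuclear form and 65.1, 69.0 and 62.5 CPM with the cytosolic form. All lay above the knockout, with log2 rises of 0.27 (adjusted p = 4.03e-05), 0.34 (adjusted p = 2.87e-06) and 0.38 (adjusted p = 9.13e-07). HPRT1 reached 63.1% to 67.7% of the unedited mean. ADK measured 94.6, 100.3 and 95.6 CPM, then 96.9, 96.5 and 97.7 CPM, then 95.2, 96.0 and 92.5 CPM in the same order. Its rises of 0.37, 0.38 and 0.34 had adjusted p of 5.13e-09, 3.65e-09 and 1.59e-08, and it reached 80.5% to 82.7% of the unedited mean.

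PNP, already higher in the knockout than in unedited cells, was higher again with each form of IMPDH2. It measured 158, 167 and 163 CPM with unlocalised IMPDH2, 161, 166 and 167 CPM with the nuclear form and 188, 191 and 185 CPM with the cytosolic form. Every PNP library with IMPDH2 lay above the knockout, whose own libraries lay above the unedited ones. PNP rose over the knockout by 0.15 (adjusted p = 9.97e-05), 0.17 (adjusted p = 2.6e-05) and 0.36 (adjusted p = 2.29e-09) on the log2 scale, and with the cytosolic form it stood at 165% of the unedited mean.

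APRT measured 79.2, 81.0 and 78.3 CPM with unlocalised IMPDH2, 77.2, 77.3 and 80.6 CPM with the nuclear form and 86.3, 85.8 and 90.3 CPM with the cytosolic form. It fell against the knockout by 0.30 (adjusted p = 1.07e-07), 0.32 (adjusted p = 3.75e-08) and 0.16 (adjusted p = 0.000131) on the log2 scale. ADA measured 4.22, 4.43 and 4.22 CPM, then 4.94, 4.53 and 4.35 CPM, then 3.47, 3.74 and 3.49 CPM in the same order. ADA fell by 0.37 (adjusted p = 0.00267), 0.26 (adjusted p = 0.0218) and 0.63 (adjusted p = 1.59e-05), and the nuclear libraries overlapped those of the knockout. All 3 ADA calls were lost with coding transcripts alone (-0.50, -0.10 and -0.21, adjusted p = 0.0763, 0.726 and 0.475), and that with unlocalised IMPDH2 with the length offset (-0.24, adjusted p = 0.274). The call with the nuclear form was also lost under other settings, including without knockout replicate 1 or 3 or without nuclear replicate 2 or 3 (adjusted p = 0.111, 0.0838, 0.058 and 0.0793).

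SLC29A1 measured between 185 and 206 CPM in the 9 libraries with IMPDH2, all above the knockout's highest of 170.2 CPM. Its rises of 0.19, 0.22 and 0.27 (adjusted p = 1.58e-05, 3.08e-06 and 2.62e-07) were lost with the length offset (0.16, 0.08 and 0.11, adjusted p = 0.0839, 0.373 and 0.257). Between libraries the estimated share of the transcript SLC29A1-208 ranged from 44.7% to 69.0%. SLC29A2 fell with the cytosolic form by 0.23 (adjusted p = 0.00142), beside differences of 0.03 and -0.07 with the unlocalised and nuclear forms that did not pass. The SLC29A2 call with the cytosolic form was lost with coding transcripts alone, where the difference was larger (-1.08, adjusted p = 0.0958). NT5C2 fell by 0.08 with the cytosolic form (adjusted p = 0.0168), a call lost without knockout replicate 1 (adjusted p = 0.22) or cytosolic replicate 3 (adjusted p = 0.0606) and under other settings. DGUOK fell by 0.20 with unlocalised IMPDH2 (adjusted p = 0.000485), a call lost with the length offset (-0.10, adjusted p = 0.145). Other calls were gained with library totals: SLC29A2 with the nuclear form (-0.15, adjusted p = 0.025) and NT5C2 with the unlocalised and nuclear forms (-0.11 and -0.13). DGUOK gained calls with the nuclear and cytosolic forms, with library totals (-0.16 and -0.15) and with coding transcripts alone (-0.20 and -0.18).

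**Figure D3:**
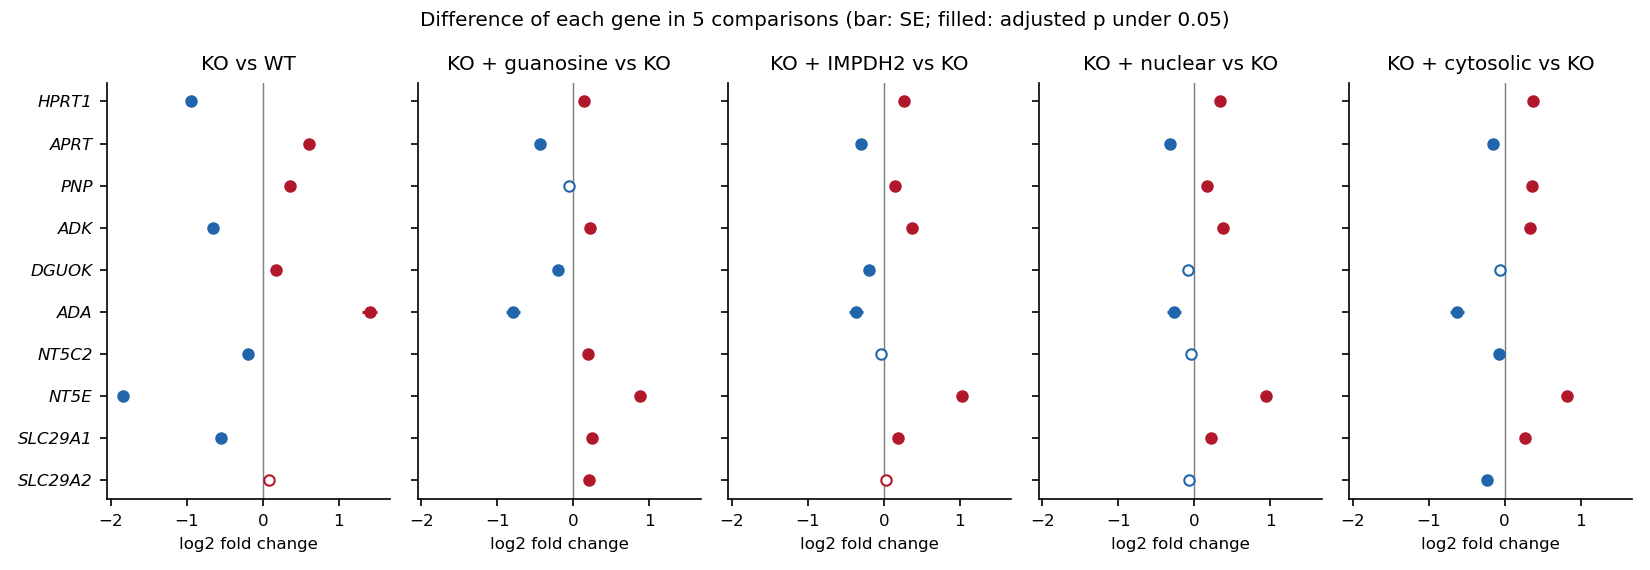
Log2 fold change of each gene in knockout against unedited cells and in the 4 other groups against knockout; bars are standard errors and filled points have an adjusted p under 0.05. NT5E has the largest differences, -1.84 in the knockout and 0.82 to 1.03 on adding guanosine or IMPDH2, while PNP is higher in the knockout and higher again with each form of IMPDH2.

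Returned in the nucleus or in the cytosol, IMPDH2 was accompanied by small differences between the forms. By the same test 5 of the 10 genes passed in nuclear against cytosolic IMPDH2, 3 higher and 2 lower with the nuclear form, where 23.9% of all genes passed (13.4% higher, 10.5% lower). Of the 10, 0 differed by 1.5-fold, against 3.79% of all genes. ADA was higher with the nuclear form by 0.37 (SE 0.0932, adjusted p = 0.00743, log2), NT5E by 0.12 (SE 0.0311, adjusted p = 0.00897) and SLC29A2 by 0.16 (SE 0.0536, adjusted p = 0.0346). PNP was lower with the nuclear form, with a difference of -0.19 (SE 0.0255, adjusted p = 2.69e-05), as was APRT at -0.16 (SE 0.0288, adjusted p = 0.000534). The libraries of the 2 forms did not overlap for these 5 genes or for ADK, against 36.2% of all genes.

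The differences of HPRT1 (-0.04, 95% interval -0.13 to 0.05), ADK (0.04, -0.02 to 0.10), SLC29A1 (-0.05, -0.11 to 0.01), NT5C2 (0.04, -0.02 to 0.09) and DGUOK (-0.02, -0.10 to 0.07) did not pass. IMPDH2 itself was lower in the nuclear libraries than in the cytosolic ones, at 297 against 379 CPM, and its part in these differences was not tested. The calls of ADA and SLC29A2 were lost with the length offset, under which the differences were no smaller (0.51 and 0.18, adjusted p = 0.0635 and 0.0788). They were also lost with coding transcripts alone (0.10 and 0.08, adjusted p = 0.801 and 0.938). That of NT5E was lost with the length offset (0.16, adjusted p = 0.05), and that of SLC29A2 also without nuclear replicate 1, nuclear replicate 3 or cytosolic replicate 2 (adjusted p = 0.109, 0.14 and 0.185).

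Guanosine and unlocalised IMPDH2, each added to knockout cells, were compared directly. The first is a supplement to the medium and the second a gene given back, so these groups also differ in how they were made. Guanosine left NT5E, ADK and HPRT1 lower than IMPDH2 did, with means further from unedited cells, and PNP, APRT and ADA lower, with means nearer to them. NT5C2 and SLC29A2 were higher with guanosine. In TMM-scaled CPM, NT5C2 was at 100.4% of the unedited mean against 85.8% with IMPDH2, and SLC29A2 at 122% against 107%. By the same test 8 of the 10 genes passed, 2 higher and 6 lower with guanosine, where 37.6% of all genes passed (18.6% higher, 18.9% lower). The largest differences were those of ADA (-0.43, SE 0.0947, adjusted p = 0.00156), NT5C2 (0.23, SE 0.0267, adjusted p = 2.73e-06) and PNP (-0.20, SE 0.0258, adjusted p = 8.39e-06). ADK differed by -0.15 (adjusted p = 0.000306), NT5E by -0.14 (adjusted p = 0.00129), APRT by -0.14 (adjusted p = 0.00122), HPRT1 by -0.13 (adjusted p = 0.0249) and SLC29A2 by 0.18 (adjusted p = 0.0112). SLC29A1 (0.05, 95% interval -0.01 to 0.11) and DGUOK (0.00, -0.09 to 0.09) did not pass.

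With coding transcripts alone, 4 of the 10 genes were called and the calls of HPRT1, APRT, ADA and SLC29A2 were lost (-0.12, -0.08, -0.15 and -0.12, adjusted p = 0.108, 0.24, 0.647 and 0.887). Over all genes this setting called 5191, against 7230 in the main fit. The calls of HPRT1 and ADA were lost with the length offset, under which the differences were larger (-0.17 and -0.46, adjusted p = 0.0566 and 0.0571). That of HPRT1 was also lost without guanosine replicate 1 or 3 or IMPDH2 replicate 2 or 3 (adjusted p = 0.0756, 0.0741, 0.134 and 0.0833), and that of SLC29A2 without guanosine replicate 3 (adjusted p = 0.0524).

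Many of the 10 genes still differed from unedited cells in the groups given guanosine or IMPDH2. Against unedited cells 8 of the 10 genes passed in the guanosine-fed knockout (63.9% of all genes), 8 with unlocalised IMPDH2 (64.5%), 9 with nuclear IMPDH2 (65%) and 10 with cytosolic IMPDH2 (67.6%). The log2 difference of HPRT1 ran from -0.79 to -0.56 in these 4 groups, and that of PNP from 0.31 to 0.72. The neighbours of HPRT1 on the chromosome had medians of -0.63, -0.74, -0.78 and -0.81 in these groups, in the order above. Those of PNP had medians of 0.19, 0.19, 0.32 and 0.43. The part of these stretches of chromosome was not tested. DGUOK differed by -0.02 with guanosine and with unlocalised IMPDH2, and neither passed (95% intervals -0.11 to 0.06 in both). Its calls with the nuclear form (0.10, adjusted p = 0.048) and the cytosolic form (0.11, adjusted p = 0.0223) were lost without WT replicate 2 (adjusted p = 0.281 and 0.148). They were also lost with the length offset (adjusted p = 0.189 and 0.29) and under other settings. SLC29A2 with the cytosolic form (-0.15, adjusted p = 0.0175) was lost without WT replicate 1 or 3 or cytosolic replicate 2 (adjusted p = 0.103, 0.0993 and 0.187). That call was also lost with library totals (-0.08, adjusted p = 0.204), the length offset (-0.12, adjusted p = 0.11) and coding transcripts alone (-1.05, adjusted p = 0.0833).

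Behind the gene totals, the make-up of transcripts is described for DGUOK and SLC29A2. DGUOK-203, annotated as a target of nonsense-mediated decay, had 0 estimated counts in each knockout library, which allows a share of the DGUOK count of up to 0.093%, 0.102% and 0.086% (counting error only). It held 11.2%, 12.6% and 16.4% in unedited cells and 18.7%, 11.4% and 15.9% with guanosine. In the groups given IMPDH2 its share ranged from 5.7% to 9.9%, so only the knockout libraries stood at 0, while the mean of the whole gene lay between 48.6 and 55.8 CPM in the 6 groups. For SLC29A2, transcripts annotated for nonsense-mediated decay held between 68.0% and 95.7% of a library's counts (median 82.4%), and coding ones between 4.3% and 32.0%. A level of SLC29A2 here is therefore mostly not one of annotated coding RNA. Salmon divides reads that transcripts share, so these shares are estimates, and no test was run on them. An exact 0 also appeared and disappeared between libraries of 1 group for other transcripts: ADK-205 held 17.6%, 15.8% and 0.0% of the ADK count in unedited cells and 18.1%, 0.0% and 0.0% in the knockout, and ADA-253 held 67.5%, 0.0% and 65.7% of ADA in unedited cells. The limits given for DGUOK-203 do not cover that uncertainty of the estimate. The same annotation held a median of 33.0% of NT5C2, 26.6% of APRT and 0.0% of HPRT1, PNP and NT5E.

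**Figure D4:**
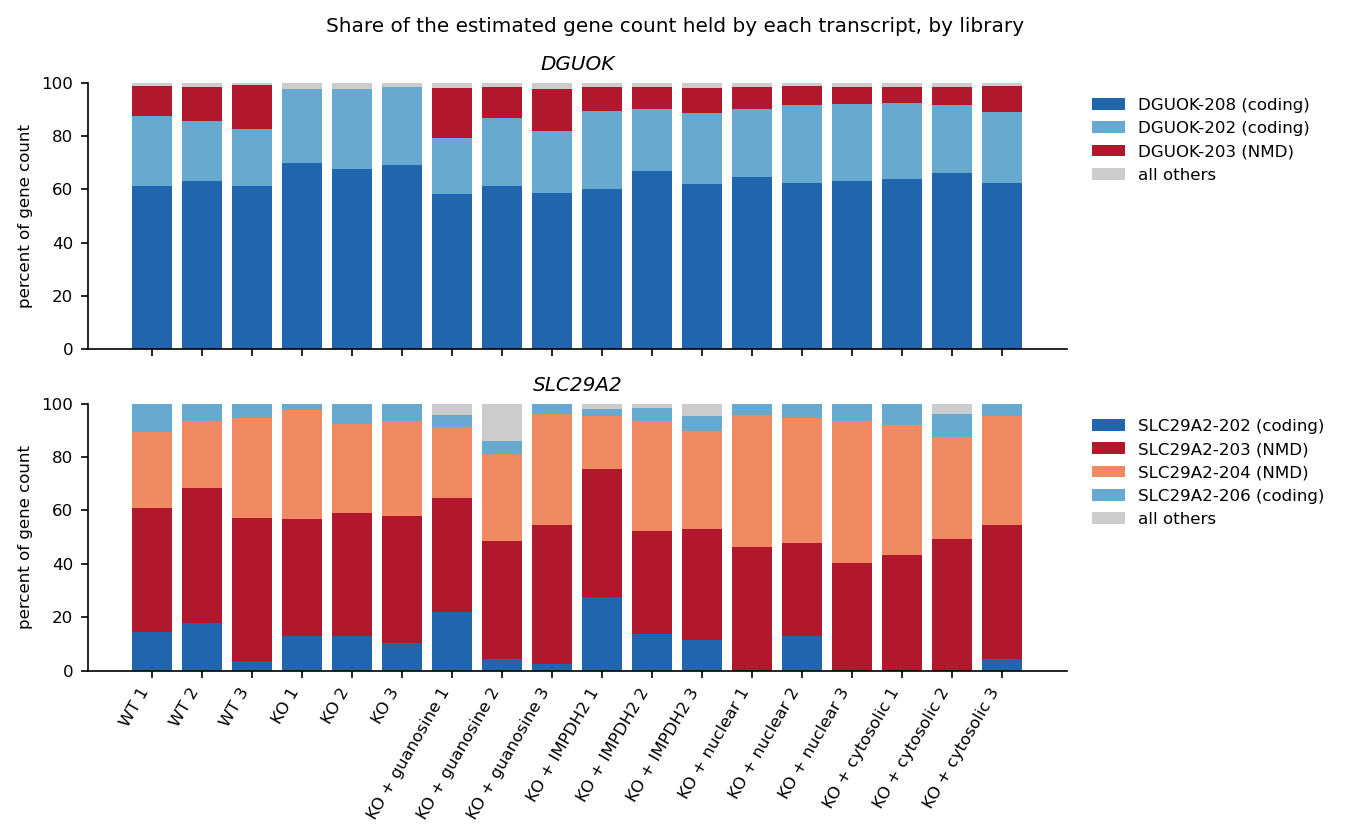
Share of the estimated gene count held by each transcript in each of the 18 libraries, for DGUOK (top) and SLC29A2 (bottom), in percent. The decay-annotated DGUOK-203 (red) is estimated at 0 in the 3 knockout libraries and holds 5.7% to 18.7% elsewhere, and decay-annotated transcripts (red and orange) hold most of SLC29A2 in every library.

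Beyond the 10 genes, 30 other genes of purine salvage, catabolism and nucleoside transport were listed, of which 22 passed the filter. In the knockout 10 of the 22 rose and 8 fell, where 72.7% of all genes passed. Against the knockout, 7 rose and 11 fell with guanosine (56.5% of all genes passed) and 6 rose and 10 fell with unlocalised IMPDH2 (50.8%). With the nuclear form 5 rose and 9 fell (53%), and with the cytosolic form 5 rose and 8 fell (50.6%). The concentrative transporter SLC28A3 rose by 2.40 (log2) in the knockout, from a mean of 0.26 to 1.38 CPM (adjusted p = 3.56e-08), and fell by 1.89 with guanosine (adjusted p = 1.06e-06) and by 2.29 with unlocalised IMPDH2 (adjusted p = 1.81e-07). The lysosomal transporter SLC29A3 rose by 0.42 (adjusted p = 5.31e-05) in the knockout and fell by 0.51 with guanosine (adjusted p = 1.21e-05).

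PRPS1 and PRPS2 make the ribose phosphate donor that HPRT1 and APRT use. PRPS1, like HPRT1 a gene of chromosome X, fell by 0.76 in the knockout (adjusted p = 1.41e-11) and had differences of 0.06, 0.06 and 0.08 with the 3 forms of IMPDH2 that did not pass. With guanosine PRPS1 rose by 0.16 (adjusted p = 0.00376). PRPS2 fell by 0.25 (adjusted p = 1.43e-05) and rose by 0.44 with guanosine (adjusted p = 1.68e-08) and by 0.38 with unlocalised IMPDH2 (adjusted p = 1.91e-07). The deoxynucleoside kinase DCK fell by 0.50 in the knockout (adjusted p = 3.49e-10) and rose by 0.42 with guanosine (adjusted p = 1.24e-08), and SAMHD1, which breaks down deoxynucleotides, fell by 0.25 (adjusted p = 1.66e-07) and rose by 0.38 (adjusted p = 1.58e-09).

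The AMP deaminase AMPD3 rose by 0.87 in the knockout (adjusted p = 2.12e-12) and fell by 0.59 with guanosine (adjusted p = 1.24e-09), while with unlocalised IMPDH2 its difference of -0.07 did not pass. AMPD3 fell by 0.16 with the nuclear form (adjusted p = 0.00363) and by 0.36 with the cytosolic form (adjusted p = 8.11e-07). Xanthine dehydrogenase, XDH, at a low level, rose by 0.70 (adjusted p = 0.000241), fell by 0.99 with guanosine (adjusted p = 1.21e-05), and did not pass with unlocalised (-0.04), nuclear (-0.28) or cytosolic IMPDH2 (0.11). Guanosine and unlocalised IMPDH2 differed directly for AMPD3 (-0.52, adjusted p = 3.26e-08) and XDH (-0.95, adjusted p = 4.72e-05). AMPD2 did not pass in the knockout (0.03) and fell by 0.48 with guanosine (adjusted p = 6.68e-10).

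AHCY, which splits S-adenosylhomocysteine into adenosine and homocysteine, did not pass in the knockout (0.00, adjusted p = 0.898) and rose by 0.32 with guanosine and 0.43 with unlocalised IMPDH2 (adjusted p = 3.58e-08 and 9.75e-10). The GMP reductases GMPR and GMPR2 rose by 0.20 and 0.18 in the knockout (adjusted p = 9.39e-05 and 4.27e-05), and the nucleobase transporter SLC43A3 fell by 0.17 (adjusted p = 5.14e-06). The nucleotidase NT5C3A rose by 0.10 (adjusted p = 0.0264) and NT5C had a difference of -0.14 that did not pass. ENTPD1 (CD39), which acts upstream of NT5E at the cell surface, rose by 2.03 (adjusted p = 1.52e-05) at a level of 0.14 to 0.58 CPM. MTAP averaged at most 0.04 CPM in any group and GDA at most 0.03 CPM, and neither was tested.

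**Figure D5:**
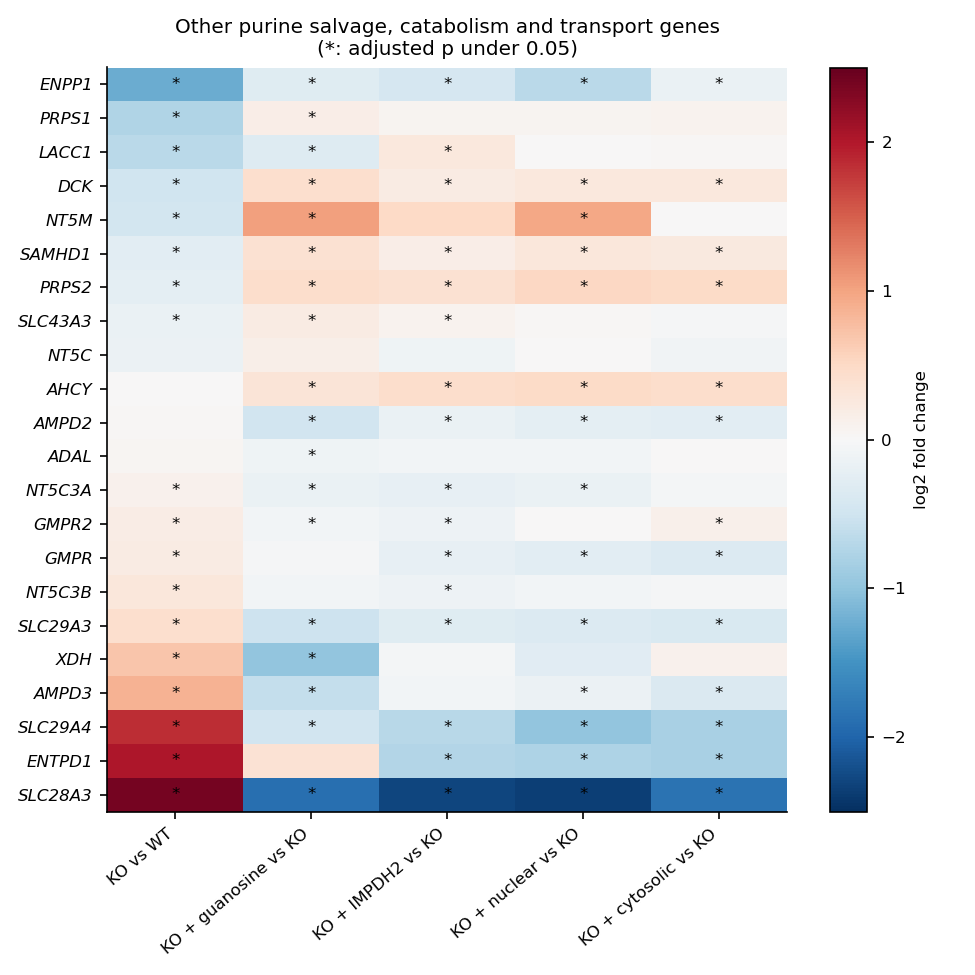
Log2 fold change of the 22 other tested pathway genes (rows) in 5 comparisons (columns); asterisks mark an adjusted p under 0.05 and the colour scale runs from blue (lower) to red (higher). SLC28A3 stands at 2.40 in knockout against unedited cells and between -2.36 and -1.85 in the 4 comparisons with the knockout.

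NT5E, ADA and HPRT1 varied most over the 6 group means, with standard deviations of 0.586, 0.489 and 0.321 in log2 CPM. Among 11627 coding genes, those whose log2 CPM followed NT5E most closely over the 18 libraries were MCM4 (Pearson r = 0.988), TPI1 (0.988) and SHMT1 (0.987). ADA was followed by IGFBP3 (0.969), NDUFA8 (0.969) and GK (0.967), and HPRT1 by GARS1 (0.983), ETF1 (0.982) and LRRC8D (0.981). These are descriptions across libraries that fall into 6 groups and share their scaling.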

How the data were processed

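RNA-seq was measured in 18 libraries of MDA-MB-231 cells, 3 in each of 6 groups assigned from the sample labels. The authors deposited estimated counts per transcript, with TPM in per-sample tables, and the deposited values were used as they stand (32.5% of the counts are not whole). Per the submitters' processing notes, Trim Galore 0.6.10 was used for trimming, Salmon 1.10.0 for quantification, and hg19 as build; the transcript set and strand setting are not given in the sources used here. Raw reads were not analysed here. Library kits were stranded, per the labels' protocols.

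Counts were summed to genes, rounded and filtered with edgeR's filterByExpr (19252 genes kept), and tested with edgeR 4.0.16 in R 4.3.3 (TMM scaling, quasi-likelihood F test, 1 fit of all 18 libraries, 11 comparisons, Benjamini-Hochberg adjustment within each, threshold 0.05). The standard error is the absolute log2 fold change divided by the square root of F. The common biological coefficient of variation was 4.87%. TPM was summed to genes for levels between genes. Positions come from GENCODE 29 on GRCh38, matched by gene identifier, and differ in build from the notes. The fit was run on simulated data in which few genes were changed, in the knockout group alone. That run does not cover scaling where most genes differ.

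The genes and lists were chosen with earlier results of these data known. Named by rule were the 10 genes in every group, IMPDH2 and IMPDH1, 18 other pathway genes by role where they passed the filter, and, for the 3 genes with the largest standard deviation of group means, the 3 coding genes with the highest correlation; MTAP and GDA are named as untested. Alternatives were DESeq2 1.42.0 size factors in edgeR, the DESeq2 Wald test, no low-count filter, an offset for transcript length, coding transcripts alone, the compared libraries alone, the per-sample tables, the replicate number as a block, leaving out each library, and, chosen after seeing the data, scaling by library totals. In knockout against unedited cells TMM and library totals differ by -0.161 in every log2 difference.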

Additional observations from a re-analysis of the deposited data

Results flagged for a closer look

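The differences below are those between knockout-derived groups that were given different additions, by a direct test of the difference (edgeR quasi-likelihood, adjusted p under 0.05). Guanosine against unlocalised IMPDH2 gave log2 differences of -0.13 for HPRT1, -0.136 for APRT, -0.198 for PNP, -0.153 for ADK, -0.428 for ADA, 0.226 for NT5C2, -0.144 for NT5E and 0.181 for SLC29A2. Nuclear against cytosolic IMPDH2 gave -0.159 for APRT, -0.191 for PNP, 0.369 for ADA, 0.12 for NT5E and 0.163 for SLC29A2. Of all genes, 37.6% passed in the first comparison and 23.9% in the second. Coding transcripts alone removed the calls of HPRT1, APRT, ADA and SLC29A2 in the first and of ADA and SLC29A2 in the second. The length offset removed those of HPRT1 and ADA in the first and of ADA, NT5E and SLC29A2 in the second. Groups of 3 libraries were not searched for outlying samples.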

How the results depend on the processing

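Every log2 difference of the 10 genes in the 11 comparisons (110 values) was recomputed. None changed its call with DESeq2 size factors. The per-sample tables hold the same counts as the series table (largest difference 0.0), so no call could change with them. The length offset removed 18 calls and added 2, coding transcripts alone removed 14, reversed 2 others that then did not pass, and added 2, and library totals removed 3 and added 9. The DESeq2 Wald test removed 2, and leaving out 1 library removed 21 and added 1 of 660. The number of the 10 genes called with unlocalised IMPDH2 against knockout was 5 with the length offset. In nuclear against cytosolic IMPDH2 it was 2 with the length offset and 3 with coding transcripts alone, and in guanosine against IMPDH2 it was 4 with coding transcripts alone. Calls also fell over all genes: with coding transcripts alone from 4600 to 3195 and from 7230 to 5191 in the latter comparisons. The counts over all genes with the length offset are given below. Coding transcripts alone reversed NT5C2 in cytosolic IMPDH2 against knockout (0.02) and SLC29A2 in guanosine against IMPDH2 (-0.12, SLC29A2 having few coding counts). The cause of these changes was not tested.

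Leaving out 1 library left 9 to 9 genes called in knockout against unedited cells and in guanosine against knockout, 8 to 8 with unlocalised IMPDH2, 6 to 7 with the nuclear form, 8 to 10 with the cytosolic form, 4 to 5 in nuclear against cytosolic IMPDH2 and 6 to 8 in guanosine against IMPDH2. Against unedited cells it left 8 to 8 with guanosine, 8 to 8 with unlocalised IMPDH2, 8 to 9 with the nuclear form and 8 to 10 with the cytosolic form.

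Over all genes the length offset cut the calls from 9780 to 6511 with unlocalised IMPDH2, from 4600 to 1855 in nuclear against cytosolic IMPDH2 and from 7230 to 4145 in guanosine against IMPDH2. Library totals moved the share of higher calls from 49.4% to 61.5% in knockout against unedited cells, from 48.3% to 38.5% with guanosine, from 50.6% to 35.3%, 49.3% to 35% and 48.6% to 32.2% with unlocalised, nuclear and cytosolic IMPDH2, and from 48.6% to 58.8% in guanosine-fed against unedited cells.

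Same-numbered libraries had correlations of -0.0855 to 0.142 between their deviations from the group means, 1 of 45 over 0.1. Libraries of other numbers had -0.131 to 0.112, 1 of 90 over 0.1, and 4 of 18 libraries correlated best with their own number. No effect shared by replicate number was thus visible, but whether same-numbered samples were handled together cannot be told from this. With the replicate block 9 genes were called in knockout against unedited cells, SLC29A2 gained a call in unlocalised IMPDH2 against unedited cells (adjusted p = 0.0294) and DGUOK lost its own with the nuclear form (adjusted p = 0.0576). ADA had a low count, 90 to 367 per library, and coding transcripts held 37.4% to 81.9% of it.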
